A study of Mus musculus with 6 samples.

Results

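The tumour necrosis factor (TNF) superfamily of ligands and the matching superfamily of receptors were followed in the vascular stromal fraction of mesenteric fat from obese mice given propolis or vehicle. Members were chosen by symbol alone: every gene named Tnfsf or Tnfrsf with a number, together with Tnf, Lta, Ltb, Ltbr, Cd40, Cd40lg, Fas, Fasl, Cd27, Cd70, Eda, Edar and Relt. The rule found 43 of the 20660 named genes on the array, measured by 54 probes. Of the 43, 39 entered the test, and 38 of those stood well above background on all 6 arrays. The ligand gene Tnfsf13 had no probe matched to it.

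All mice were male C57BL/6JHamSlc-ob/ob, a strain without working leptin that overeats and becomes obese. The propolis group received Brazilian propolis ethanol extract, a bee product, by intraperitoneal injection, with 2 injections of 100 mg/kg each week over 12 weeks (n = 3). The vehicle group received the carrier, which contained low concentrations of DMSO and ethanol, over the same period (n = 3). Both groups carried the leptin mutation, and no lean mice were included. The labels give no age and do not say how many mice each sample holds, so p-values measure the spread between these samples. The fraction is the cell pellet left when collagenase-digested fat is spun and its red cells are lysed, a mixture of immune, stromal, vascular and mesothelial cells. The design sets propolis against vehicle and so asks which transcripts of this mixture differed at the end of treatment.

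Ligands of the TNF superfamily are trimeric membrane proteins, many of which are also cut off the cell surface and act as soluble cytokines. Their receptors carry cysteine-rich extracellular repeats and differ in how they signal. A death domain links some of them to caspases, and most recruit TRAF adaptors that activate NF-kB and the JNK pathway. In fat of obese animals TNF, made largely by macrophages, is known for its part in inflammation and impaired insulin action, while lymphotoxins, BAFF, RANKL and CD40 govern lymphoid tissue, B cells, osteoclasts and contact between T cells and antigen-presenting cells.

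Every level below is the log2 intensity of a probe relative to the 75th percentile of its array, every difference is propolis minus vehicle on that log2 scale, and each ± gives an SD over 3 arrays. That percentile ranged from 459 to 729 intensity units. Levels of different genes come from different probes and were not set against each other. Propolis 1, propolis 2, vehicle 1 and vehicle 2 lay on slide 1 and were scanned together, and propolis 3 and vehicle 3 lay on slide 2. Macrophage markers averaged 4.66 to 5.02 on propolis arrays and 4.50 to 4.95 on vehicle arrays. Adipose progenitor markers averaged 5.73 to 5.92 on propolis arrays and 5.64 to 5.76 on vehicle arrays. Vehicle 2 carried pancreatic acinar markers at a mean of 4.64, against -3.32 to -2.47 on the other 5 arrays, and B cell markers at 1.66. Vehicle 3 carried intestinal epithelial markers at 4.53, against -4.06 to -0.36 elsewhere, and stood apart on the first principal component. Mesothelial markers averaged 1.71 to 2.64 on propolis arrays and -0.17 to 1.14 on vehicle arrays, and adipocyte markers 0.96 to 1.92 on propolis arrays and 1.96 to 2.85 on vehicle arrays. Endothelial markers averaged 0.89 to 2.17 on propolis arrays and 1.95 to 2.56 on vehicle arrays, with 7 of 7 lower in mean after propolis. Dendritic cell markers averaged -0.71 to -0.12 on propolis arrays and -0.08 to 0.44 on vehicle arrays. Of these, 4 of the 5 tested were lower in mean after propolis, and Cd209a was higher.

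No member of the superfamilies passed limma's test at an adjusted p under 0.05, where 0.834% of all 25777 genes and transcripts did. The lowest adjusted p of a member was 0.0848. At an unadjusted p under 0.05 there were 10 members of 39 (25.6%), against 11.7% of all genes. Of these 10, 5 stood higher after propolis (7.24% of all genes) and 5 lower (4.48% of all genes). The receptors Tnfrsf19, Tnfrsf23 and Tnfrsf12a and the ligands Fasl and Tnfsf14 made up the higher 5, and the ligands Cd70, Tnfsf10 and Lta and the receptors Cd40 and Tnfrsf13c the lower 5. Cd70 entered the test only through the vehicle arrays. Among genes well above background on all 6 arrays, 9 of 38 members had such a p, against 11.9% of all genes. With vehicle 1 left out there were 5 members (7.66% of all genes), without vehicle 2 there were 7 (8.09%) and without vehicle 3 there were 12 (13.6%). Without vehicle 2 and vehicle 3 together there were 4 (5.28%), a fit in which the lone vehicle array is assumed to vary like the propolis arrays.

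The 3 propolis arrays lay entirely above or below the 3 vehicle arrays for 10 members (25.6%), against 17.4% of all genes. Cd70, which entered the test only through the vehicle arrays, is among the 10. This count was not repeated over genes well above background on all 6 arrays. Of these 10, 6 lay higher (10.8% of all genes) and 4 lower (6.62% of all genes). Fitted differences of at least 2-fold were seen for 5 of 39, against 7.69% of all genes. For 1 of these 5, Cd70, the main processing gives only an approximate lower bound of 1.87-fold, and another background correction gave a smaller difference. Members varied widely among themselves, with a median size of difference of 0.46 against 0.25 over all named genes. As a family they had no common direction. Of 39 members, 23 had a lower mean in propolis (50.4% of all genes had) and 16 a higher one, and the median difference was -0.11. Centring each array on its median moved the median of all genes to 0.15 and that of the members to 0.05, with 18 of 39 then lower. Ligands (8 of 15 lower) and receptors (15 of 24 lower) were both mixed.

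**Figure D1:**
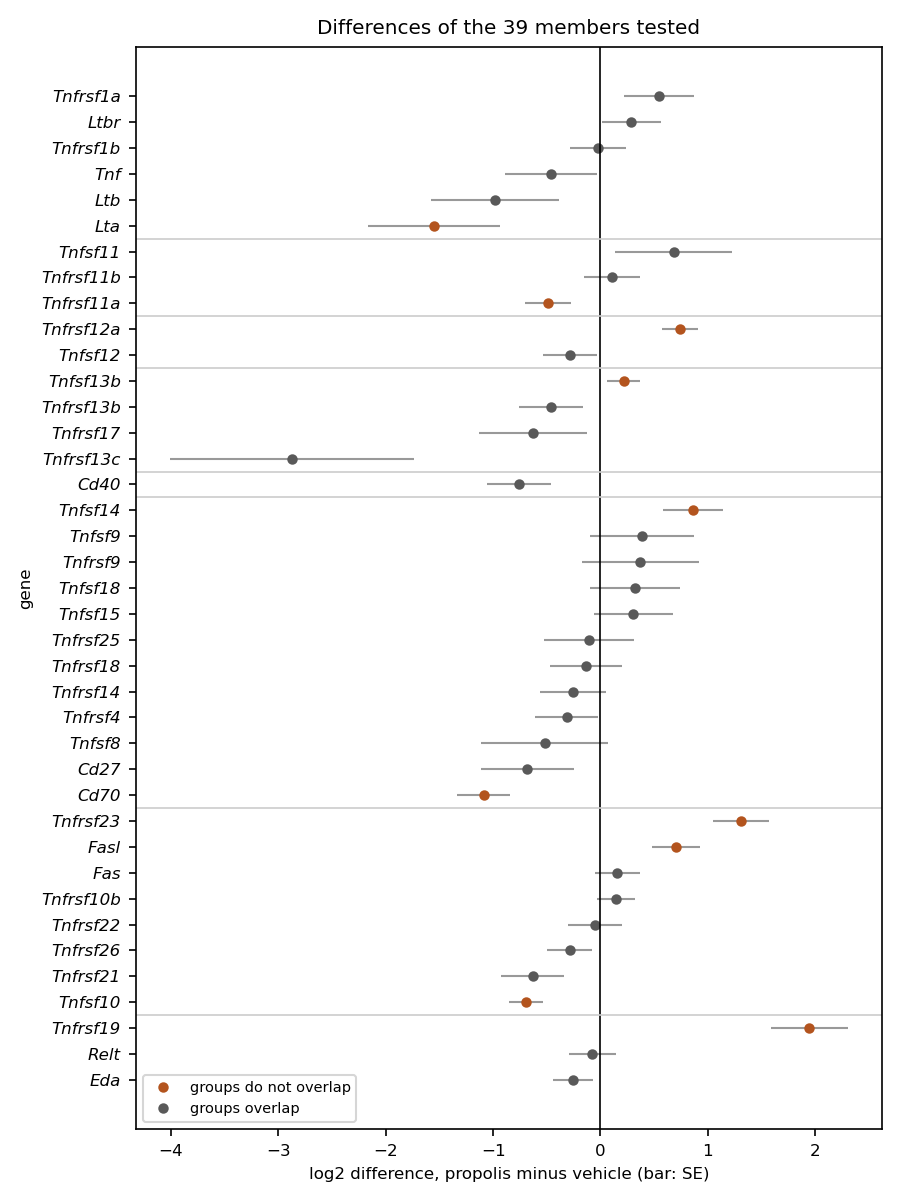
Difference in log2 level, propolis minus vehicle (x axis), for the 39 members tested (y axis), arranged by signalling axis. Points are limma estimates from 3 propolis and 3 vehicle arrays, bars are standard errors, and orange marks the 10 members whose groups did not overlap. Tnfrsf19 lies farthest to the right at 1.95, and Tnfrsf13c lies farthest to the left at -2.88 with the widest bar.

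**Figure D2:**
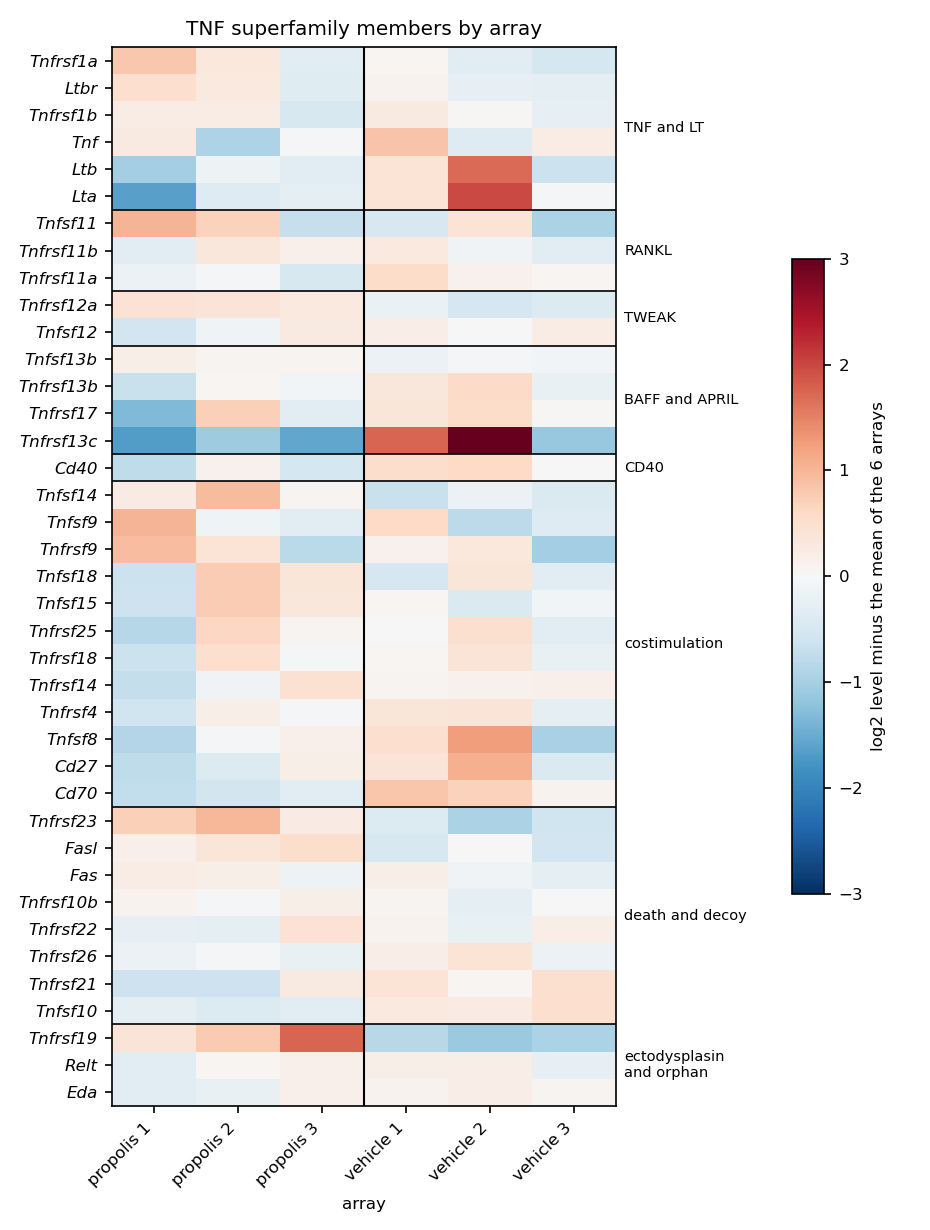
Log2 level minus the mean of the 6 arrays (colour, red above and blue below) for the 39 members tested (rows, by signalling axis) on the propolis and vehicle arrays (columns). Tnfrsf13c, Lta, Ltb, Cd27 and Tnfsf8 are reddest on vehicle 2, and Tnfrsf19 is blue on all 3 vehicle arrays.

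The lowest p of the family belonged to Tnfrsf19, which encodes TROY, a receptor without a death domain known from embryonic skin and the nervous system. It stood at 0.03, 0.43 and 1.40 on the propolis arrays, against -1.19, -1.48 and -1.31 on the vehicle arrays. The vehicle arrays lay close together, and propolis 3 was the highest of all. The mean was 0.62 ± 0.70 in propolis and -1.33 ± 0.15 in vehicle, a difference of 1.95 with a standard error of 0.36, or 3.85-fold. This did not pass (limma adjusted p = 0.0848, 95% interval of the difference 1.08 to 2.81). The difference was 1.56 on slide 1 and 2.71 on slide 2. Without vehicle 2 it was 1.87, without vehicle 3 it was 1.95, and without both it was 1.81. As the mean over its 2 probes it was 1.13 (adjusted p = 0.345). Only with centring on the array median (adjusted p = 0.0299) and with array weights (adjusted p = 0.00635), of 23 alternative settings, was Tnfrsf19 called.

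Tnfrsf19 has a dimmer probe for the same RefSeq transcript, and there the groups overlapped. That probe read -5.11, -4.24 and -3.35 on propolis arrays, against -4.18, -4.66 and -4.83 on vehicle arrays, a difference of 0.32, and it stood well above background on 5 of the 6 arrays. The mean of the mesothelial markers was also higher on every propolis array than on any vehicle array. Of the markers, 8 of 8 were higher in mean and 5 had groups that did not overlap, while Krt19 was highest on vehicle 3. The 2 called were Wt1 and Bnc1. The part of the mesothelial markers in the Tnfrsf19 difference was not tested. In RNA from a mixed fraction, more cells of a type and more transcript per cell cannot be told apart, for this gene or any other named here.

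The bases before the starts of 4 members are shown, because these were the members of lowest p well above background on all 6 arrays. Each window is the 250 bases before a RefSeq transcript start on mouse build GRCm38.p6, 5′ to 3′ on the strand of the gene. Capitals mark the GC box GGGCGG, the TATA box TATAAA, the AP-1 motif TGANTCA and the NF-kB consensus, on either strand, with overlapping matches merged. Tnfrsf19 has starts at chr14:61037988-61038237 and at chr14:61046856-61047105, both on the minus strand. Tnfrsf23 is at chr7:143685876-143686125 (minus), Tnfrsf12a at chr17:23677450-23677699 (minus) and Tnfsf10 at chr3:27316827-27317076 (plus).
Tnfrsf19, first window: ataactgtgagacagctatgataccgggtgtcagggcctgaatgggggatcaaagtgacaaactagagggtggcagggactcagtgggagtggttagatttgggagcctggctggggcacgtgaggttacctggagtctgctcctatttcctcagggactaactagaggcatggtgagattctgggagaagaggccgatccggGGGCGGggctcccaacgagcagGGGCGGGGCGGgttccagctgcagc
Tnfrsf19, second window: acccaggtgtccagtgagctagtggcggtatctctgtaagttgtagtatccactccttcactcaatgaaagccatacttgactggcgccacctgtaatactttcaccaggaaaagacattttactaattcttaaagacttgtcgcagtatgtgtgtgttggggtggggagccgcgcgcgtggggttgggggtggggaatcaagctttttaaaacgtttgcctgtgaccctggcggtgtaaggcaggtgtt
Tnfrsf23: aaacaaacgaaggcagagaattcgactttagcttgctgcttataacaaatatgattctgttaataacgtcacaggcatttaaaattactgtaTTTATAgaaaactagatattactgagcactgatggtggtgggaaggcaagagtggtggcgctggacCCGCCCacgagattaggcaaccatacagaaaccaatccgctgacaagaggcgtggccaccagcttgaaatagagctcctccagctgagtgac
Tnfrsf12a: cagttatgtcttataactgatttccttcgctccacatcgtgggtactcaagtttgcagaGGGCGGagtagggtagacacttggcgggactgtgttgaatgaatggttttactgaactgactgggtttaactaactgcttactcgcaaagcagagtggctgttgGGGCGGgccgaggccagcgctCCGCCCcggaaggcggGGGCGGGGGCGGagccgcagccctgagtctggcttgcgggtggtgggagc
Tnfsf10: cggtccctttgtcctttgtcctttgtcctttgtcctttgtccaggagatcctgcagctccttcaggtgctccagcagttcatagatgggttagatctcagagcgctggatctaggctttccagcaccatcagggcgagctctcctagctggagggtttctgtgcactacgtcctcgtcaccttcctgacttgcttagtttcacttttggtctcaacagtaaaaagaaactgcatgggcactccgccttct

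The GC box was in the first Tnfrsf19 window, in Tnfrsf23 and in Tnfrsf12a, and the second Tnfrsf19 window and Tnfsf10 held none of the motifs searched. Tnfrsf23 also held TATAAA on the opposite strand, at positions -158 to -153 relative to the start. Windows were found for 33 of the 43 members, 37 in all with alternative starts. Of the 37, 16 held a GC box, against 33.0% of all 32536 windows of the same length. TATAAA was in 6 of 37 (12.3% of all windows) and TGANTCA in 5 of 37 (6.73% of all). The NF-kB consensus was in 4 of 37, those of Ltb, Tnfrsf25, Tnfrsf8 and Tnfrsf9, against 7.28% of all windows. These are matches of letters only, and the arrays did not measure binding.

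Among death receptors, their ligands and decoys, 8 members were tested, with 4 lower and 4 higher. Tnfrsf23 encodes a mouse decoy receptor for TRAIL that has no death domain. It stood at 1.67, 1.93 and 1.20 on propolis arrays, against 0.54, -0.01 and 0.35 on vehicle arrays. Every propolis array lay above every vehicle array, by a mean of 1.31 (SE 0.26, 2.48-fold, limma adjusted p = 0.0980). The dimmer second probe of Tnfrsf23 differed by 0.89, but there the groups overlapped and 1 vehicle array was not well above background. Its neighbours on chromosome 7, the TRAIL decoy gene Tnfrsf22 and the related receptor gene Tnfrsf26, differed by -0.05 and -0.29, with overlapping groups. These 3 genes are close relatives, and cross-hybridisation between their probes was not tested.

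Tnfsf10 encodes TRAIL, the ligand that these decoys and the death receptor DR5 bind. It stood at -0.03, -0.14 and -0.08 on propolis arrays, against 0.55, 0.52 and 0.76 on vehicle arrays. Both groups were tight and did not overlap, with a difference of -0.69 (SE 0.16, 1.62-fold lower, limma adjusted p = 0.149). The difference was -0.62 on slide 1 and -0.84 on slide 2, and -0.63 without vehicle 2 and vehicle 3 together. DR5 itself, encoded by Tnfrsf10b, differed by 0.15, with overlapping groups.

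Fasl, the ligand by which cytotoxic lymphocytes engage the death receptor Fas, stood higher. Its levels were -1.21, -1.01 and -0.84 on propolis arrays, against -1.85, -1.37 and -1.95 on vehicle arrays. The groups did not overlap, though vehicle 2 lay close to propolis 1, and the difference was 0.70 (SE 0.22, limma adjusted p = 0.280). Natural killer cell markers averaged -1.52 to -0.81 on propolis arrays and -1.61 to -1.14 on vehicle arrays. Fas differed by 0.16 with overlapping groups. Tnfrsf21, encoding the death receptor DR6, stood at -1.35, -1.35 and -0.46 on propolis arrays, against -0.33, -0.68 and -0.27 on vehicle arrays. Propolis 3 lay inside the vehicle range, and the difference was -0.63 (limma adjusted p = 0.490). Without propolis 3 it was -0.93 (limma adjusted p = 0.121). It was -0.48 without propolis 1 (limma adjusted p = 0.825) and -0.48 without propolis 2 (limma adjusted p = 0.772).

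**Figure D3:**
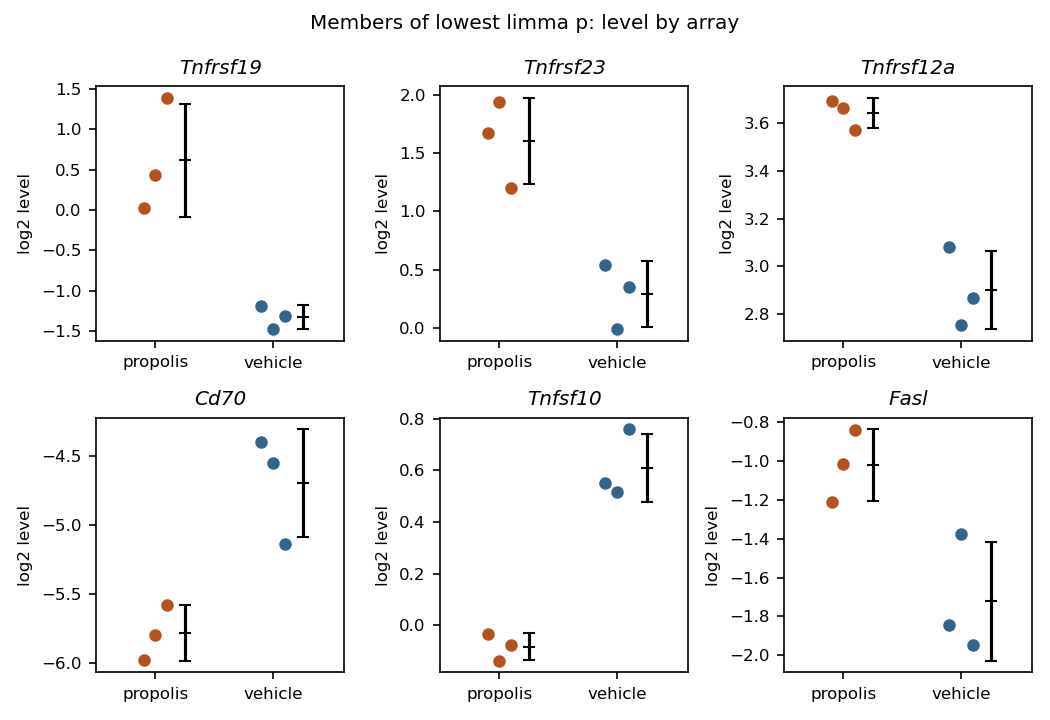
Log2 level relative to the 75th percentile of each array (y axis, scaled per gene and not starting at 0) for the 6 members of lowest limma p, in 3 propolis and 3 vehicle arrays (x axis). Points are arrays, bars are mean ± SD. In all 6 panels the groups do not overlap, with Tnfrsf19, Tnfrsf23, Tnfrsf12a and Fasl higher and Cd70, not well above background on any propolis array, and Tnfsf10 lower in propolis.

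The TWEAK axis has a single ligand, Tnfsf12, and a single signalling receptor, Fn14, encoded by Tnfrsf12a and known as a gene that injury and growth factors induce. Tnfrsf12a stood at 3.69, 3.66 and 3.57 on propolis arrays, against 3.08, 2.76 and 2.87 on vehicle arrays. The propolis arrays were nearly alike and all higher, with a difference of 0.74 (SE 0.17, 1.67-fold, limma adjusted p = 0.141). It was 0.76 on slide 1 and 0.70 on slide 2, and 0.56 without vehicle 2 and vehicle 3 together. Tnfsf12 stood at 0.60, 1.06 and 1.46 on propolis arrays, against 1.39, 1.18 and 1.41 on vehicle arrays. Its groups overlapped, with propolis 3 the highest array and propolis 1 the lowest (difference -0.29, limma adjusted p = 0.747).

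Tnf, the founding cytokine, did not separate the groups. It stood at 0.30, -0.90 and -0.04 on propolis arrays, against 0.87, -0.38 and 0.25 on vehicle arrays. The arrays interleaved, with a difference of -0.46 (95% interval -1.49 to 0.57, limma adjusted p = 0.758). With array weights it was -1.32 (adjusted p = 0.0859). Its main receptor gene Tnfrsf1a, which most cells express, stood at 6.06, 5.57 and 4.93 in propolis, against 5.30, 4.90 and 4.72 in vehicle. Propolis 3 lay inside the vehicle range, and the difference was 0.55 (95% interval -0.25 to 1.34). Tnfrsf1b, the receptor found mainly on immune and endothelial cells, stood at 2.51, 2.50 and 1.81 in propolis, against 2.54, 2.31 and 2.03 in vehicle. The 2 means differed by -0.02 (95% interval -0.66 to 0.61). The part of the lower endothelial markers in this value was not tested.

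Lymphotoxin alpha and beta, encoded beside Tnf on chromosome 17 by Lta and Ltb, form a complex on lymphocytes that drives the formation of lymphoid tissue. Lta stood at -3.78, -2.55 and -2.45 on propolis arrays, against -1.75, -0.17 and -2.22 on vehicle arrays. The groups did not overlap, but vehicle 3 lay close to propolis 2 and 3 and vehicle 2 far above the rest (difference -1.55, SE 0.62, 2.92-fold lower, limma adjusted p = 0.405). The difference was -2.21 on slide 1 and -0.23 on slide 2, and -0.94 without vehicle 2. Ltb stood at 2.48, 3.34 and 3.18 in propolis, against 3.91, 5.18 and 2.85 in vehicle. Vehicle 3 lay inside the propolis range, and the difference was -0.98 (limma adjusted p = 0.619). Without vehicle 2 that of Ltb was -0.38. Ltbr, their receptor on stromal cells, stood at 4.30, 4.08 and 3.43 in propolis, against 3.91, 3.55 and 3.50 in vehicle, with overlapping groups and a difference of 0.29 (95% interval -0.37 to 0.95).

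RANKL, encoded by Tnfsf11, acts on its receptor RANK (Tnfrsf11a), and osteoprotegerin (Tnfrsf11b) is the soluble decoy that captures it. Tnfsf11 stood at -1.32, -1.66 and -3.03 on propolis arrays, against -2.83, -1.93 and -3.30 on vehicle arrays. Propolis 3 lay within the vehicle range, and the difference was 0.68 (95% interval -0.63 to 2.00). Tnfrsf11a stood at 1.75, 1.87 and 1.44 in propolis, against 2.48, 2.06 and 1.99 in vehicle. Its groups did not overlap, and the difference of -0.49 (SE 0.22, 1.41-fold lower) did not pass (limma adjusted p = 0.456, unadjusted p = 0.0608). It was -0.46 on slide 1 and -0.55 on slide 2, and -0.34 without vehicle 1. Tnfrsf11b stood at 1.31, 1.97 and 1.79 in propolis, against 1.92, 1.54 and 1.29 in vehicle, with a difference of 0.11 (95% interval -0.52 to 0.73) and overlapping groups.

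BAFF, the B cell survival factor encoded by Tnfsf13b, varied little between arrays. It stood at 0.55, 0.44 and 0.44 on propolis arrays, against 0.18, 0.31 and 0.29 on vehicle arrays. All 3 propolis arrays were higher, by a mean of 0.22 (SE 0.15, 1.16-fold, limma adjusted p = 0.680). The receptors for BAFF and APRIL mark B cells and plasma cells. Tnfrsf13c, the BAFF receptor of mature B cells, stood at -3.03, -2.41 and -2.91 in propolis, against 0.40, 2.36 and -2.49 in vehicle. Vehicle 1 and vehicle 2 were far above every propolis array, while vehicle 3 lay inside the propolis range. Its mean was -2.79 ± 0.33 in propolis and 0.09 ± 2.44 in vehicle, a difference of -2.88 with a standard error of 1.14 (limma adjusted p = 0.403). The difference was -4.10 on slide 1 and -0.42 on slide 2. Without vehicle 2 it was -1.74 (adjusted p = 0.722), and without vehicle 3 it was -4.17 (adjusted p = 0.0798).

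Tnfrsf13b, encoding TACI, stood at -2.27, -1.56 and -1.68 on propolis arrays, against -1.27, -1.04 and -1.83 on vehicle arrays, and vehicle 3 again lay inside the propolis range (difference -0.46, limma adjusted p = 0.644). Tnfrsf17 encodes BCMA, the receptor of plasma cells. It stood at -2.45, -0.40 and -1.48 in propolis, against -0.77, -0.57 and -1.10 in vehicle. Propolis 2 was the highest array and propolis 1 the lowest, and the difference was -0.63 (limma adjusted p = 0.723). Plasma cell markers averaged 1.93 to 2.14 on propolis arrays and 1.16 to 2.13 on vehicle arrays.

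Cd40, the receptor through which T cells license B cells, dendritic cells and macrophages, stood at -0.22, 0.67 and 0.01 in propolis, against 1.07, 1.13 and 0.54 in vehicle. Vehicle 3 lay below propolis 2, and the difference was -0.76 (SE 0.30, 1.69-fold lower, limma adjusted p = 0.401). It was -0.87 on slide 1 and -0.53 on slide 2, and -0.65 without vehicle 2. B cell markers (9 of 9) and dendritic cell markers (4 of 5) were lower in mean as well. The dendritic marker Cd209a went the other way, higher by 0.82 with groups that did not overlap. The part of these markers in the Cd40 and Cd70 values was not tested. The probe of its ligand gene Cd40lg, a marker of activated helper T cells, was well above background on none of the 6 arrays and was not tested. Edar, the ectodysplasin receptor gene, was likewise well above background on none.

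Lymphocyte costimulation was the largest group, with 12 members tested, 7 lower and 5 higher. Cd70, the ligand of CD27 that activated lymphocytes and dendritic cells display, was well above background on all 3 vehicle arrays and on none of the propolis arrays. Its probe read -5.98, -5.80 and -5.58 on propolis arrays, against -4.40, -4.55 and -5.14 on vehicle arrays. The measured means were -5.79 ± 0.20 in propolis and -4.70 ± 0.39 in vehicle (limma adjusted p = 0.144). With the main background correction this gives an approximate lower bound of 1.87-fold on the fall in mean, which is not a confidence limit. That bound takes, per propolis array, the higher of the probe's own signal and the lowest signal well above background there. It is not strict, since the probe read -5.58 on propolis 3, above that array's lowest such signal of -5.75, without being well above background. The p compares vehicle values with propolis values that were not well above background, in a gene that passed the filter through vehicle alone. With normexp background correction the fitted difference was -0.23 (adjusted p = 0.786), smaller than the bound, which therefore does not hold under that correction.

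Cd27, the receptor of CD70 on T cells and memory B cells, stood at -3.17, -2.82 and -2.22 in propolis, against -2.00, -1.33 and -2.83 in vehicle. Vehicle 3 was as low as propolis 2, and the difference was -0.68 (limma adjusted p = 0.643), with -1.32 on slide 1 and 0.61 on slide 2. Tnfsf14 encodes LIGHT, a ligand of both HVEM and the lymphotoxin beta receptor, and lies next to Cd70 on chromosome 17. It stood at -0.26, 0.44 and -0.43 in propolis, against -1.19, -0.69 and -0.95 in vehicle. Every propolis array was higher than every vehicle array, with a difference of 0.86 (SE 0.28, 1.82-fold, limma adjusted p = 0.300). It was 0.60 without propolis 2 and 0.74 without vehicle 1. The neighbours Cd70 and Tnfsf14 therefore lay on opposite sides of 0, and Tnfsf9, the third gene of that row, differed by 0.38 with overlapping groups.

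The remaining 15 tested members had overlapping groups, differences from -0.52 for Tnfsf8 to 0.38 for Tnfsf9, and adjusted p of 0.685 or more. They were the costimulatory receptors Tnfrsf4 (OX40), Tnfrsf9 (4-1BB), Tnfrsf14 (HVEM), Tnfrsf18 (GITR) and Tnfrsf25 (DR3), and the ligands Tnfsf8, Tnfsf9, Tnfsf15 and Tnfsf18. Fas, Tnfrsf10b, Tnfrsf22, Tnfrsf26, Eda, which encodes ectodysplasin, and the orphan receptor gene Relt completed them. Besides Cd40lg and Edar, Tnfrsf8 (CD30) and Tnfsf4 (OX40 ligand) were not tested, since each was well above background on 1 propolis array alone.

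Members known from lymphocytes were set beside lymphocyte markers array by array. B cell markers averaged -2.35, -1.97 and -1.26 on propolis arrays, against 0.03, 1.66 and -1.53 on vehicle arrays. Of 10 markers listed 9 were tested, Pax5 being the one left out, and all 9 had a lower mean in propolis, with overlapping groups and 0 called. Tnfrsf13c, Lta, Ltb and Cd27 were highest on vehicle 2 and next on vehicle 1, the same first and second arrays as the B cell marker mean. The T cell and dendritic cell marker means had the same first and second arrays, so this order is not particular to B cell markers. T cell markers averaged 0.02, 0.77 and 1.10 on propolis arrays, against 1.45, 2.04 and 0.57 on vehicle arrays, and 10 of 10 had a lower mean in propolis. Tnfsf8, Cd27 and Ltb were highest on vehicle 2 as well, while Tnfrsf18 and Tnfrsf25 were highest on propolis 2. Lymph node stroma markers averaged -1.74 to -0.56 on propolis arrays and -0.30 to 0.80 on vehicle arrays. Of 6 listed, 4 were tested, with 3 lower in mean after propolis and 1, Ccl19, higher (difference 0.55). Cr2, among the 3 lower, is also a B cell marker here, so this list is not separate from that of B cells. The part of these cells in the values of Tnfrsf13c, Lta, Ltb and Cd27 was not tested.

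**Figure D4:**
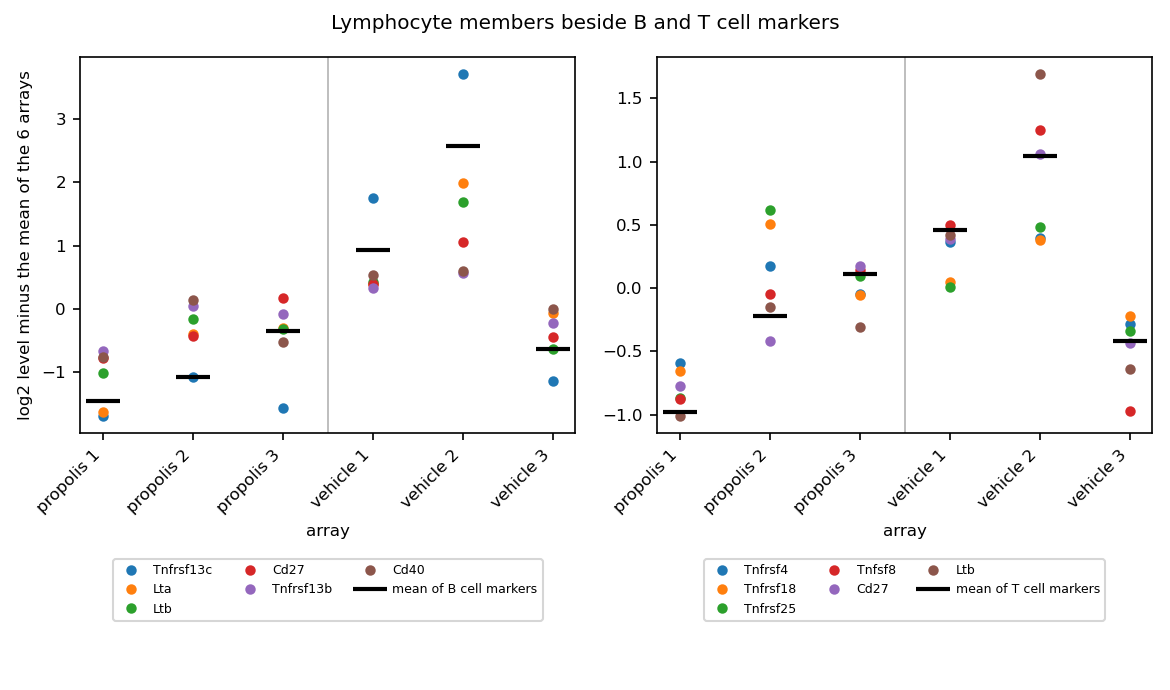
Log2 level minus the mean of the 6 arrays (y axis) on each propolis and vehicle array (x axis) for members known from B cells (left) and T cells (right), with black bars for the mean of 9 B cell or 10 T cell markers centred the same way. Tnfrsf13c and the B cell mean are highest on vehicle 2, next on vehicle 1, and low on vehicle 3.

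Slides were compared because each held both groups. Of the 39 members, 24 had the same sign of difference on slide 1 and on slide 2. Where the groups do not overlap the sign must be the same on each slide, and among the 29 overlapping members 14 had the same sign. With slide as a block 0 members were called, and Tnfrsf19 had the lowest adjusted p (0.0619).

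Several members were read by a second probe. Of 11 members with 2 probes, all 11 had the same sign of difference on both, and for 7 the dimmer probe was well above background on all 6 arrays. Both probes read the same samples, and the share with the same sign over all genes was not counted. The other probe of Eda, for a different transcript, was well above background on 0 arrays. Its sign (-0.26 on the brighter probe and -0.82 on the other) therefore adds nothing. Sizes were close for Cd27 (-0.68 on the brighter probe and -0.81 on the other), Tnfrsf13b (-0.46 and -0.30), Tnfrsf1a (0.55 and 0.31) and Tnfsf12 (-0.29 and -0.49). They were far apart for Tnfrsf19 (1.95 and 0.32) and Tnfrsf13c (-2.88 and -1.50), where the dimmer probe missed the background limit on some arrays. For Tnfrsf23 they were 1.31 and 0.89, with the dimmer probe well above background on 3 propolis and 2 vehicle arrays. The sizes also differed for Tnfrsf9 (0.37 and 0.03) and Tnfrsf14 (-0.25 and -0.55), where the dimmer probe was well above background on all 6 arrays.

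**Figure D5:**
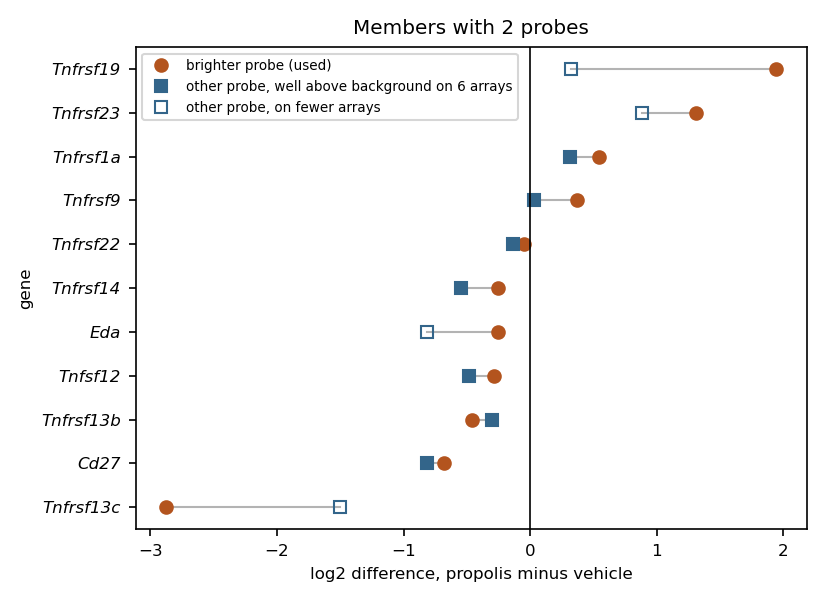
Difference in log2 level, propolis minus vehicle (x axis), for the 11 members with 2 probes (y axis). Orange circles are the brighter probe, blue squares the other, filled where that probe stood well above background on all 6 arrays and open where it did not. Both probes lie on the same side of 0 for all 11, with the widest gaps for Tnfrsf19 and Tnfrsf13c.

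Downstream of the receptors, 48 genes of 4 pathway lists were tested. Of 19 adaptors and ubiquitin enzymes, 13 were lower and 6 higher, 1 was called (0.834% of all genes), and 3 had an unadjusted p under 0.05, all of them lower (4.48% of all genes). The groups did not overlap for 6 of the lower (6.62% of all genes) and 2 of the higher genes (10.8%). Tnip3, which encodes a member of the A20-binding ABIN family, stood at -1.44, -2.07 and -1.50 in propolis, against 0.02, -0.08 and 0.08 in vehicle. It fell by 1.68 on the log2 scale, or 3.20-fold (limma adjusted p = 0.0361), with tight vehicle arrays and no overlap. As the mean over the gene's probes it fell by 2.41 (adjusted p = 0.0147). The call did not hold with any of the 6 arrays left out in turn, when the adjusted p ran from 0.0671 to 0.155. Tnip3 was lower by 1.48 to 1.79 in those settings.

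The TRAF adaptors of lowest p were lower and not called. Traf1, which NF-kB induces in lymphocytes, stood at 1.17, 1.37 and 1.52 in propolis, against 2.01, 2.38 and 1.76 in vehicle (difference -0.70, limma adjusted p = 0.286). Traf5 stood at 0.58, 1.19 and 1.34 in propolis, against 1.62, 1.88 and 1.72 in vehicle (difference -0.71, limma adjusted p = 0.328). Neither gene had overlapping groups, and all 3 values of each were lower after propolis.

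Of 9 genes of the death machinery, 4 were lower, 5 higher and 0 called by limma, with 1 at an unadjusted p under 0.05 (11.7% of all genes). That gene was Mlkl, the pore-forming executor of necroptosis, at 0.84, 0.25 and 0.54 in propolis, against 0.14, -0.20 and 0.04 in vehicle (difference 0.55, limma adjusted p = 0.398). Its activating kinase gene Ripk3 stood at 3.26, 2.84 and 2.58 in propolis, against 2.52, 2.20 and 2.33 in vehicle (difference 0.54, limma adjusted p = 0.436). Both had higher values on every propolis array. Cflar, encoding the caspase-8 inhibitor c-FLIP, differed by -0.20 with overlapping groups.

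Of 16 NF-kB core genes, limma called 0 and none had an unadjusted p under 0.05, with 11 lower, 5 higher and a median difference of -0.05. The lowest p were those of the subunit genes Rel (-0.96, overlapping groups) and Rela (-0.18, no overlap) and the kinase gene Ikbkb (-0.19, overlapping groups). The Rel probe was dim, well above background on 2 propolis and 3 vehicle arrays. Of the 4 genes listed for cutting ligands and receptors off the cell, enzymes and their partners, 0 were called and none had an unadjusted p under 0.05. Adam17, the enzyme that releases soluble TNF, differed by -0.12, Adam10 by 0.29 and Rhbdf1, a partner of Adam17, by -0.05, all with overlapping groups.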

How the data were processed

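Gene expression was measured on 1-colour Agilent mouse arrays. Per the file headers, they were read with Feature Extraction 10.7.3.1 and designed on build mm9. The deposited scanner files give fluorescence intensity after background correction. The deposited series table gives log2 values that match the log2 scanner intensity apart from a shift of each array (array medians -3.95 to -3.61), and served as an alternative.

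Log2 intensities were averaged over the spots of a probe, without spots flagged as non-uniform, and the 75th percentile of each array was subtracted. A probe entered if well above background on at least 3 of 6 arrays, and the brightest such probe stood for its gene. Symbols came from RefSeq accessions (assembly GRCm38.p6), which named 27235 of 55681 probes. No spot was saturated. The test was limma 3.58.1 (R 4.3.3) with lmFit and eBayes, adjusted by Benjamini-Hochberg over all 25777 genes and transcripts. The same fit was run on simulated independent normal values with known shifts, where the only requirement set was on the mean estimated shift. Recovered shifts and false calls were counted in that run but held to no limit. That run does not show how often the test errs on these data. An exact permutation test of 3 against 3 cannot give a p below 0.1. The number of arrays limits the precision.

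Members, axes, pathway and marker lists were chosen with earlier results of these data known. Values by array are given for the 16 members of lowest p, for both sides of the TNF and lymphotoxin, RANKL, TWEAK, BAFF and CD40 axes, and for some of the pathway genes named, which are those that passed and the 3 of lowest p in each list. Which flags to leave out, and whether to take the percentile over probes or spots, were settled after values had been seen. Alternatives changed the background correction (normexp, on median signals), scaling, filter, flags, the choice of probe, variance model, array weights, blocks and arrays used.

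Deviations from the group means correlated at 0.036, 0.291 and 0.135 for arrays sharing a replicate number. For the other pairs of a propolis and a vehicle array they correlated at -0.310 to 0.206. The replicate numbers were not taken to pair the samples, though these values do not settle whether they do.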

Additional observations from a re-analysis of the deposited data

How the results depend on the processing

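Across 23 alternative settings, 27 of 39 members kept their direction in every setting that measured them. The 12 whose direction turned in some setting had differences of 0.38 or less in size. The number of members called was 0 except with centring on the array median (1, Tnfrsf19) and with array weights (9: Cd70, Fasl, Tnfrsf12a, Tnfrsf13c, Tnfrsf19, Tnfrsf21, Tnfrsf23, Tnfsf10 and Tnfsf14). Of all genes, 215 were called, against 121 when 1 array above background sufficed, 106 with no filter, 3231 with array weights, 73 with the replicate block, 0 on slide 1 alone, 0 without vehicle 2 and vehicle 3 together and 11 to 94 with 1 array left out. With array weights 51.8% of the calls were higher, against 86.5% without them, and the cause was not tested. The replicate block left 0 members called. Members at an unadjusted p under 0.05 numbered 17 with array weights, where 32.2% of all genes had such a p. Tnip3 was not called when 1 array above background sufficed (adjusted p = 0.0571), with no filter (0.0667), with the replicate block (0.0701), on slide 1 alone (0.0955) or without vehicle 2 and vehicle 3 together (0.581), a fit that takes its spread from the propolis arrays alone. Signal over background limits Cd40lg, Edar, Tnfrsf8 and Tnfsf4, which were too dim to compare, and Cd70, which has only an approximate bound. Leaving out spots of non-uniform background, which removed Tnfrsf11b (214 genes called), and taking the percentile over spots (211 called) were added after the data were seen.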
